A study of Mus musculus with 13 samples.

Results

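The complement system is a cascade of plasma proteins, with inhibitors and receptors on cell surfaces, that marks targets for uptake and forms pores in membranes. Its classical pathway starts with C1q, its lectin pathway with mannose-binding lectins and ficolins, and its alternative pathway turns over on C3 itself, and all of them meet at the cleavage of C3 and then of C5. Hepatocytes make most of the circulating components, whereas C1q comes mainly from macrophages, and the receptors for the C3a and C5a fragments sit largely on myeloid cells. The mRNAs of 32 complement genes were described here, chosen by gene symbol from a list of the pathway, out of 54532 genes in the count table. All 32 were among the 14280 genes that passed the filter on low counts. They comprised 19 components made chiefly by hepatocytes, 5 made by macrophages and other myeloid cells (C1qa, C1qb, C1qc, Cfp and Fcna), 3 anaphylatoxin receptors (C3ar1, C5ar1 and C5ar2), 3 inhibitors or carriers found in several cell types (Cd55, Cd59a and Clu), Cfd, an adipocyte product in mice, and C7, a product of stromal cells.

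The samples were whole livers of wild-type C57 BL6 mice, 8 weeks old, profiled by RNA sequencing. Acute injury was induced with D-galactosamine at 500 mg/kg and lipopolysaccharide at 5 µg/kg (GalN/LPS), both given into the peritoneum. Galactosamine traps uridine in hepatocytes, which limits their RNA synthesis and sensitises them to the cytokines evoked by lipopolysaccharide. The prostaglandin E2 analogue dmPGE2 was given at 300 µg/kg. The groups were dmPGE2 given 1 h before GalN/LPS (pretreated, n = 4), GalN/LPS alone (n = 3), dmPGE2 alone (n = 3) and saline (n = 3), with collection at 6 h. The series description calls the animals AILI mice, but each sample's own label names GalN with LPS, and that label was followed. For dmPGE2 alone the labels record no separate interval, so the time since dmPGE2 may differ from that in the pretreated group. The labels do not state that each library came from its own animal, and the p-values then measure only the spread between these samples, which may be technical. Whole liver mixes cell types, so for every gene below more cells of a type and more RNA per cell cannot be told apart.

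Total counts ranged from 14829838 to 20777809 per library. Levels are CPM, read counts relative to the size of the library, scaled by TMM, a method that aligns the bulk of genes between libraries. A log2 fold change is followed by its standard error after ±, a mean level by its SD. Adjusted p-values are from the quasi-likelihood test of edgeR over all genes tested, called at 0.05. TMM factors differed between groups, with 0.683 to 0.83 in pretreated, 0.904 to 1.14 in GalN/LPS, 1.16 to 1.28 in dmPGE2 and 1.17 to 1.18 in saline libraries. With library totals in place of TMM, the median log2 fold change of all genes moved by -0.51 in pretreated against GalN/LPS livers, by -0.75 in pretreated against dmPGE2 livers and by -0.17 in GalN/LPS against saline livers. Hepatocyte markers such as Alb were abundant in every library (8 of 8 tested), at 141000 to 225000 CPM summed in pretreated, 94700 to 135000 in GalN/LPS, 68000 to 74800 in dmPGE2 and 88900 to 104000 in saline livers.

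**Figure D1:**
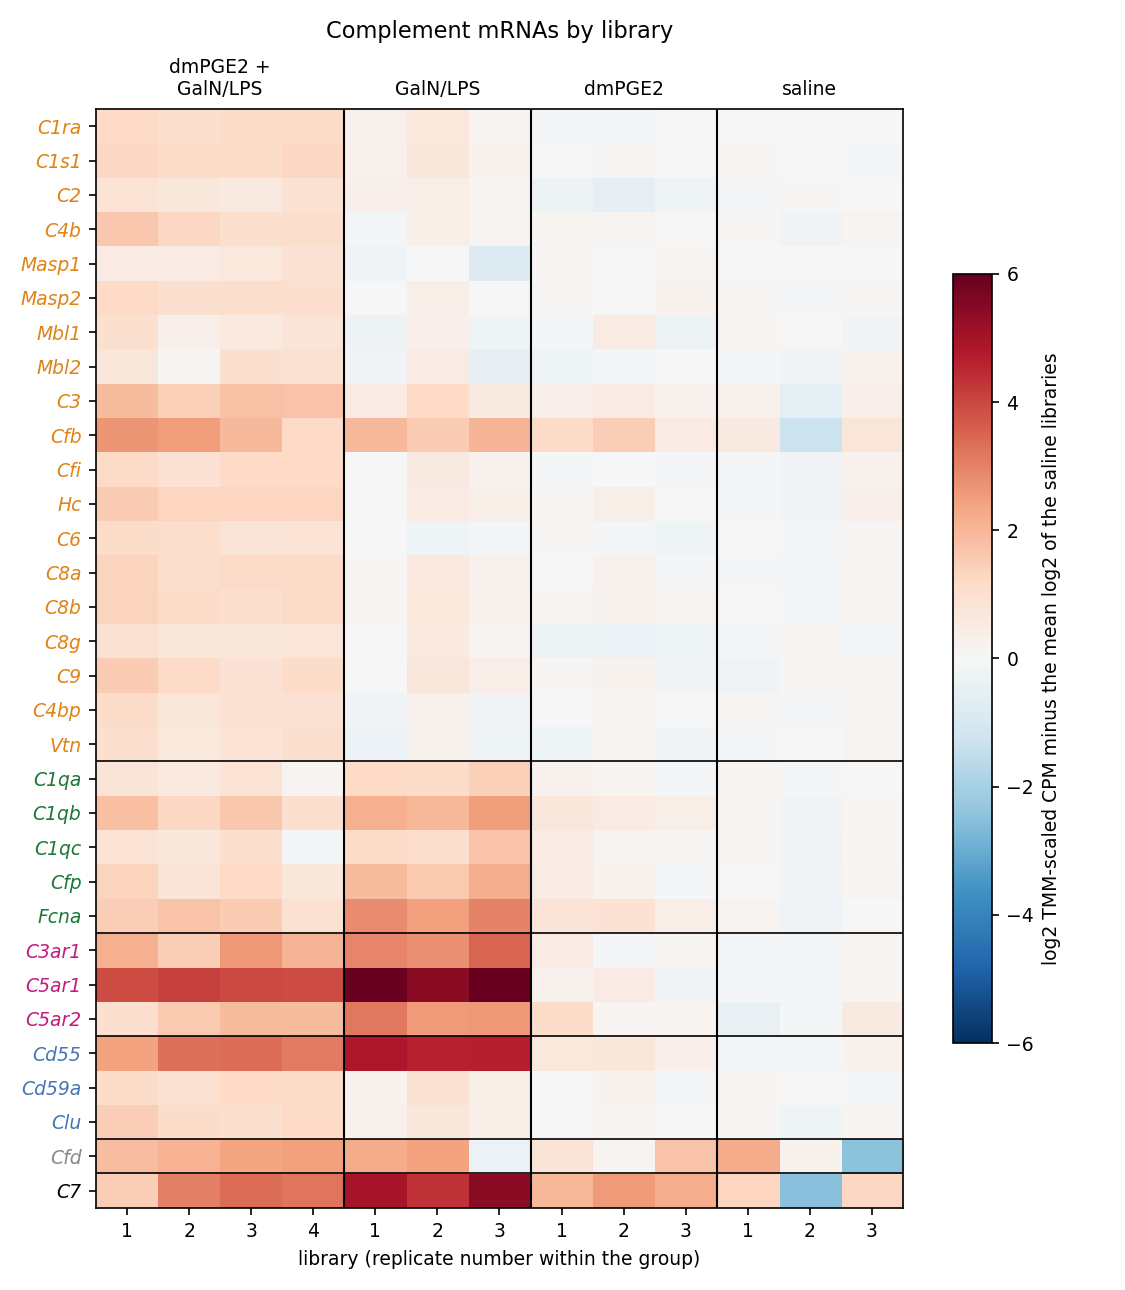
Level of each complement mRNA (rows, italic; colour of the name gives its role: orange hepatocyte, green macrophage, pink receptor, blue several cell types, grey Cfd, black C7) in each of 13 libraries (columns), as log2 TMM-scaled CPM minus the mean log2 value of the saline libraries. Most of the 19 hepatocyte mRNAs are highest in the 4 dmPGE2 + GalN/LPS libraries, whereas the macrophage and receptor mRNAs, Cd55 and C7 are highest in the 3 GalN/LPS libraries.

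With GalN/LPS the complement genes differed between the role groups. Those groups were chosen with earlier results of these data known. Of the 32 members, 16 were higher and 0 lower in GalN/LPS than in saline livers, where 52.9% of all genes passed the test (27.4% higher). All 5 macrophage components and all 3 receptors were among the 16, with median log2 fold changes of 1.90 and 3.08. Only 4 of 19 hepatocyte components passed, all higher, with a median of 0.27 over the 19, beside 0.025 over all genes. The libraries of both groups did not overlap for 18 members, and for 59.7% of all genes.

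Pretreatment moved both classes, in opposite directions. Against GalN/LPS livers, 20 members were higher and 10 lower in pretreated livers, where 54.5% of all genes passed (24.4% higher and 30.1% lower). The higher ones were 18 of 19 hepatocyte components with Cd59a and Clu. The lower ones were all 5 macrophage components, all 3 receptors, Cd55 and C7. The median log2 fold change was 0.84 over hepatocyte, -0.78 over macrophage and -1.16 over receptor mRNAs, beside -0.10 over all genes. Libraries did not overlap for 29 members and for 50.4% of all genes. With library totals in place of TMM, 13 members were higher, all of them hepatocyte components. The same number of macrophage and receptor mRNAs was lower (5 and 3). The shares of all genes above hold for TMM only. With library totals the median of all genes was -0.61, and far more genes were lower than higher (counts in the last section). Lower calls were thus common among all genes with that scaling, and higher calls were rare. The hepatocyte median itself was 0.84 with TMM and 0.34 with library totals. Less the median of all genes, it was 0.93 and 0.94. A change of scaling shifts all genes nearly alike, so that difference is no check of the scaling. Hepatocyte markers moved beside the hepatocyte components, with 7 of 8 higher in pretreated than in GalN/LPS livers. The components summed to 0.192 ± 0.0543 of the CPM of those markers in pretreated, 0.159 ± 0.00483 in GalN/LPS, 0.208 ± 0.0166 in dmPGE2 and 0.149 ± 0.0143 in saline livers. Pretreated livers were uneven, at 0.26, 0.21, 0.145 and 0.151 in replicates 1 to 4. Replicates 3 and 4 lay within the saline range of 0.133 to 0.161. The part of hepatocyte content in the change of the components was not tested.

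A measure within each library, free of scaling, showed the same contrast. The summed hepatocyte components held 129, 120, 111 and 183 times the counts of the summed macrophage components in the 4 pretreated livers. The ratio was 33.5, 57.3 and 29.4 in GalN/LPS livers, 79.8, 103 and 102 in dmPGE2 livers, and 106, 107 and 118 in saline livers. GalN/LPS livers lay below every other library, with no overlap, while pretreated livers overlapped saline livers.

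C3, the protein on which all 3 pathways meet, was the most abundant complement mRNA per length in injured livers, with 2428 ± 357 FPKM in pretreated and 1320 ± 319 FPKM in GalN/LPS livers. Vitronectin (Vtn), with 2370 ± 290 FPKM in pretreated and 1246 ± 229 FPKM in GalN/LPS livers, lay within that spread. In saline livers C3 came second at 805.8 ± 223 FPKM, after Vtn at 1365 ± 115 FPKM. C3 (ENSMUSG00000024164, GRCm38 chromosome 17, 57203970 to 57228136, minus strand) had 14860, 10672, 13174 and 12762 CPM in pretreated livers, 5527, 8964 and 5830 CPM in GalN/LPS livers, 4895, 5581 and 4687 CPM in dmPGE2 livers, and 4668, 2761 and 4814 CPM in saline livers. All 4 pretreated livers lay above all others, GalN/LPS livers lay above saline livers, and the saline livers were spread by 1 low library. C3 was higher in pretreated than in GalN/LPS livers (log2 fold change 0.93 ± 0.23, adjusted p = 0.00349) and in GalN/LPS than in saline livers (0.73 ± 0.24, adjusted p = 0.0179). The second call was lost without GalN/LPS replicate 2 (0.47, adjusted p = 0.0881) or without saline replicate 2 (0.50, adjusted p = 0.091). As a share of all counts, which amounts to scaling by library totals, C3 took 0.872 to 1.07% in pretreated, 0.629 to 0.81% in GalN/LPS, 0.588 to 0.649% in dmPGE2 and 0.326 to 0.561% in saline livers.

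The C3 promoter is shown because its mRNA led the hepatocyte group. It covers chr17:57228087-57228386 (minus strand, GRCm38.p6, RefSeq), from 250 bases before to 50 after the start, and is written 5′ to 3′ on the gene's strand.
C3: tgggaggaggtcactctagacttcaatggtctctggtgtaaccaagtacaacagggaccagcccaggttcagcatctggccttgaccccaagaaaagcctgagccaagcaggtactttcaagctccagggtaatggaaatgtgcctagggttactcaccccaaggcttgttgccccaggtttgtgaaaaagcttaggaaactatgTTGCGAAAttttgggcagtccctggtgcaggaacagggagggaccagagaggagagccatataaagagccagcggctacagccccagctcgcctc
Capitals mark the only match to 4 motifs searched on both strands, the C/EBP motif TTGCNNAA, 45 bases before the start. C/EBP factors are transcriptional regulators of acute-phase genes in liver. That motif lay in 10.8% of 32851 promoters of this length and in 5 of the 25 members with a promoter in the table (C1ra, C1s1, C3, C9 and C5ar2). The STAT motif TTCNNNGAA lay in 8.3% of promoters and in 5 members (C1ra, C7, C8a, Masp2 and Vtn). The matches of C1ra and Vtn lay 32 and 35 bases after the start. For C7 and Masp2 the bases after the start matched no transcript of the gene.

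Among the initiators and proteases of the classical pathway, the hepatocyte mRNAs moved modestly with injury and more with pretreatment. C1ra and C1s1, the proteases carried by C1q, were higher in GalN/LPS than in saline livers by 0.35 ± 0.14 (adjusted p = 0.0481) and 0.39 ± 0.14 (adjusted p = 0.0315) on the log2 scale. Both calls were fragile: that of C1ra was lost when any 1 of the 13 libraries was left out (0.19 to 0.39), and that of C1s1 held in 7 of 13 such fits and was lost without saline replicate 1 (0.41), 2 (0.37) or 3 (0.35), GalN/LPS replicate 2 (0.21) or 3 (0.36), or dmPGE2 replicate 1 (0.38). In pretreated against GalN/LPS livers they were higher by 0.78 ± 0.13 and 0.79 ± 0.14, with adjusted p of 0.000277 and 0.000296. C4b, the substrate of C1s, had 3535, 2738, 2268 and 2427 CPM in pretreated livers, 1062, 1463 and 1292 CPM in GalN/LPS livers, 1277, 1317 and 1199 CPM in dmPGE2 livers, and 1210, 998 and 1308 CPM in saline livers. With TMM only the pretreated libraries stood apart. With library totals the call of C4b in pretreated against dmPGE2 livers was lost (log2 fold change 0.37, adjusted p = 0.0554). With TMM the log2 fold change of C4b was 1.11 ± 0.18 in pretreated against GalN/LPS livers (adjusted p = 0.000204), the largest among hepatocyte components. In GalN/LPS against saline livers C4b was at 0.12 ± 0.19 (adjusted p = 0.628). Its near-identical copy C4a held 1.19% of the counts of C4b. C2, the protease of the C3 convertase, was higher in pretreated than in GalN/LPS livers by 0.45 ± 0.12 (adjusted p = 0.00438), which turned to -0.06 with library totals. Its exons share 42.8% of their bases with Gm20547, a transcript across C2 and Cfb on the same strand. Reads that match both may not have been counted, so the level of C2 is uncertain.

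In the lectin pathway, Mbl1 and Mbl2 encode mannose-binding lectins and Masp1 and Masp2 the proteases bound to them. None of these 4 passed in GalN/LPS against saline livers, with log2 fold changes of -0.31 for Masp1 and -0.05 for Mbl1, -0.03 for Mbl2 and 0.13 for Masp2. Masp1 passed as lower with library totals (-0.49, adjusted p = 0.0105) and without GalN/LPS replicate 2 (-0.47, adjusted p = 0.0261). It had 172, 174, 192 and 224 CPM in pretreated livers, 104, 119 and 71.8 CPM in GalN/LPS livers, 130, 124 and 137 CPM in dmPGE2 livers, and 121, 123 and 121 CPM in saline livers. With TMM, GalN/LPS livers held the 3 lowest values and pretreated livers the 4 highest. With library totals Masp1 averaged 139.2 CPM in pretreated, 101.9 CPM in GalN/LPS, 160.6 CPM in dmPGE2 and 143 CPM in saline livers. All 4 mRNAs were higher in pretreated than in GalN/LPS livers, by 0.95 ± 0.16 for Masp1, 0.91 ± 0.13 for Masp2, and 0.72 for Mbl1 and for Mbl2 (SE 0.21 and 0.24). With library totals the calls of Mbl1 (0.22, adjusted p = 0.26) and Mbl2 (0.23, adjusted p = 0.31) were lost. The call of Mbl2 was lost without GalN/LPS replicate 1 (0.63, adjusted p = 0.0738) or 3 (0.52, adjusted p = 0.102). Masp2 shares 54.9% of its exon bases with Tardbp on the opposite strand, and since the use of strand in counting is not given, its values are uncertain.

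The alternative pathway behaved less uniformly. Cfb, the protease of its C3 convertase and an acute-phase gene, had 14.3, 13.04, 8.67 and 5.24 CPM in pretreated livers, 8.75, 6.61 and 9.36 CPM in GalN/LPS livers, 5.02, 6.38 and 3.25 CPM in dmPGE2 livers, and 3.30, 0.946 and 3.79 CPM in saline livers. It was higher in GalN/LPS than in saline livers (log2 fold change 1.62 ± 0.42, adjusted p = 0.00389), and was the only hepatocyte component that did not pass in pretreated against GalN/LPS livers (0.32 ± 0.37, adjusted p = 0.472). Its exons share 79.5% of their bases with Gm20547, a transcript across C2 and Cfb on the same strand, and reads that match both may not have been counted, so its low level is uncertain. Cfi, the protease that inactivates C3b, did not pass with GalN/LPS (0.27 ± 0.18, adjusted p = 0.21) and was higher in pretreated than in GalN/LPS livers (0.84 ± 0.17, adjusted p = 0.000835). Cfd, which cleaves factor B, lay between 0.048 and 1.44 CPM in all libraries and passed in none of the comparisons. Without saline replicate 1, Cfd passed as higher in GalN/LPS livers (2.37, adjusted p = 0.0283). Markers of adipocytes summed to at most 0.464 CPM in any library, with Lep at 0 throughout.

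The terminal components, which build the membrane attack complex, followed the hepatocyte pattern with 1 exception, C7. Hc, the mouse gene for C5 (ENSMUSG00000026874, chromosome 2, 34983331 to 35061438, minus strand), had 2337, 1961, 1988 and 1953 CPM in pretreated livers, 816, 1132 and 1025 CPM in GalN/LPS livers, 860, 1018 and 808 CPM in dmPGE2 livers, and 760, 705 and 994 CPM in saline livers. The pretreated libraries lay above all others, and the other groups overlapped one another. The log2 fold change of Hc was 1.06 ± 0.17 in pretreated against GalN/LPS livers (adjusted p = 0.000181) and 0.27 ± 0.18 in GalN/LPS against saline livers (adjusted p = 0.21). C6, which joins the complex after C5b, had 671, 656, 541 and 557 CPM in pretreated livers, 319, 258 and 296 CPM in GalN/LPS livers, 331, 301 and 260 CPM in dmPGE2 livers, and 322, 293 and 326 CPM in saline livers. It was higher in pretreated than in GalN/LPS livers by 1.06 ± 0.14 (adjusted p = 4.47e-05). The chains of C8 and the pore-forming C9 were higher in pretreated livers too, by 0.86 for C8a, 0.81 for C8b, 0.80 for C9 and 0.48 for C8g, and none of the 4 passed in GalN/LPS against saline livers. C8b passed there without GalN/LPS replicate 1 (0.46, adjusted p = 0.0361). The call of C8g between pretreated and GalN/LPS livers was lost without GalN/LPS replicate 1 (0.36, adjusted p = 0.0771) or 3 (0.41, adjusted p = 0.0682), and its value was -0.01 with library totals. With library totals C9 was not called either (0.31, adjusted p = 0.133).

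C7, the terminal component made outside hepatocytes, moved the other way. Its mRNA (chromosome 15, 4988762 to 5063740, minus strand) had 0.793, 2.32, 2.92 and 2.62 CPM in pretreated livers, 8.86, 5.73 and 12.2 CPM in GalN/LPS livers, 1.12, 1.68 and 1.31 CPM in dmPGE2 livers, and 0.687, 0.0498 and 0.672 CPM in saline livers. GalN/LPS livers lay above all other libraries. C7 was higher in GalN/LPS than in saline livers (4.22 ± 0.53, adjusted p = 6.13e-06) and fell in pretreated relative to GalN/LPS livers (-2.05 ± 0.42, adjusted p = 0.000973). Markers of stellate cells and fibroblasts such as Dcn and Col1a1 moved beside it: 5 of 6 were higher in GalN/LPS than in saline livers and 5 of 6 lower in pretreated relative to GalN/LPS livers. Their summed level was 98.1 to 304 CPM in pretreated, 366 to 707 CPM in GalN/LPS, 91.3 to 118 CPM in dmPGE2 and 85.5 to 135 CPM in saline livers. Their part in the change of C7 was not tested.

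Of the soluble regulators from hepatocytes, C4bp, which binds C4b, and Vtn, which blocks insertion of the terminal complex, did not pass in GalN/LPS against saline livers (-0.02 ± 0.16 and -0.11 ± 0.19). Vtn had 5526, 4278, 4781 and 5251 CPM in pretreated livers, 2100, 3159 and 2304 CPM in GalN/LPS livers, 2242, 2960 and 2438 CPM in dmPGE2 livers, and 2520, 2660 and 3001 CPM in saline livers. With TMM, pretreated libraries again stood above the rest, which overlapped. With library totals Vtn averaged 3624 ± 242 CPM in pretreated, 3128 ± 287 CPM in dmPGE2 and 3207 ± 263 CPM in saline livers. Pretreated against dmPGE2 livers was then not called (log2 fold change 0.21, adjusted p = 0.135). With TMM the log2 fold change in pretreated against GalN/LPS livers was 0.98 ± 0.18 for Vtn (adjusted p = 0.000501). For C4bp it was 0.93 ± 0.15 (adjusted p = 0.000209).

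**Figure D2:**
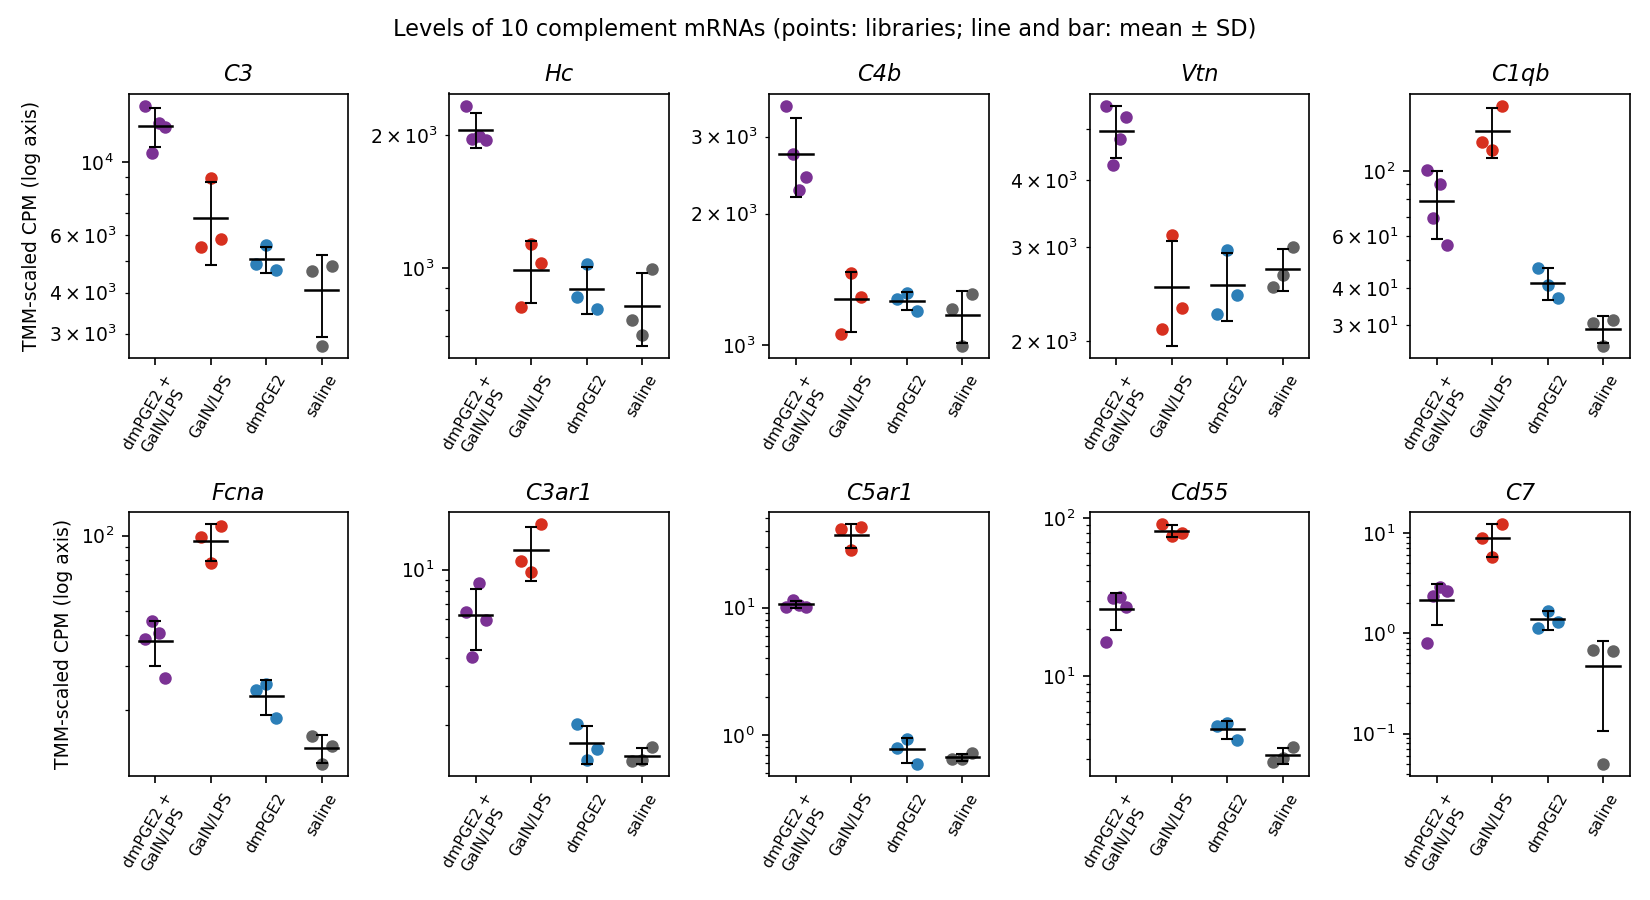
TMM-scaled CPM (log axis) of 10 complement mRNAs in each library, with dmPGE2 + GalN/LPS, GalN/LPS, dmPGE2 and saline from left to right; points are libraries, and lines with bars are means ± SD (n = 4, 3, 3 and 3). C3, Hc, C4b and Vtn are highest in the dmPGE2 + GalN/LPS libraries, while C1qb, Fcna, C3ar1, C5ar1, Cd55 and C7 are highest in the GalN/LPS libraries.

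The macrophage components rose with injury, and with TMM their mean levels after pretreatment lay between. With library totals the pretreated means of C1qa (43.74 CPM, against 45.93 CPM in saline livers) and C1qc (33.23 CPM, against 34.27 CPM in saline livers) lay slightly below saline. C1qb, 1 of the 3 chains of C1q, had 101, 69.1, 90.5 and 56.3 CPM in pretreated livers, 125, 117 and 166 CPM in GalN/LPS livers, 47.1, 41.1 and 37.1 CPM in dmPGE2 livers, and 30.7, 25.6 and 31.2 CPM in saline livers. With TMM the 4 groups did not overlap. With library totals pretreated and dmPGE2 livers averaged 58.11 ± 14.5 and 51.56 ± 7.72 CPM (log2 fold change 0.17, adjusted p = 0.49). With TMM, C1qb was higher in GalN/LPS than in saline livers (log2 fold change 2.23 ± 0.20, adjusted p = 2.1e-07). It fell in pretreated relative to GalN/LPS livers (-0.78 ± 0.18, adjusted p = 0.00215). C1qa and C1qc, the other chains, were higher in GalN/LPS than in saline livers by 1.26 ± 0.16 and 1.33 ± 0.23, and fell in pretreated relative to GalN/LPS livers by 0.66 and 0.70 (log2 fold changes -0.66 ± 0.15 and -0.70 ± 0.21). The second call of C1qc was lost without GalN/LPS replicate 3 (-0.47, adjusted p = 0.0884). Cfp encodes properdin, which stabilises the alternative convertase, and its log2 fold changes were 1.90 ± 0.21 (adjusted p = 1.23e-06) in GalN/LPS against saline livers and -0.88 ± 0.18 (adjusted p = 0.00115) in pretreated against GalN/LPS livers.

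The chains of C1q did not keep 1 proportion. Within a library, the counts of C1qb were 1.2 to 1.52 times those of C1qa in pretreated livers, 1.39 to 1.56 times in GalN/LPS livers, 0.965 to 1.0 times in dmPGE2 livers and 0.689 to 0.816 times in saline livers. Injured and uninjured livers did not overlap in this ratio, and neither did dmPGE2 and saline livers. The counts of C1qc over C1qa averaged 0.747 ± 0.0821 in pretreated, 0.773 ± 0.111 in GalN/LPS, 0.814 ± 0.0469 in dmPGE2 and 0.747 ± 0.0791 in saline livers, with overlap between all groups. Per length, C1qb over C1qa averaged 1.27 in pretreated, 1.38 in GalN/LPS, 0.945 in dmPGE2 and 0.714 in saline livers. These ratios need no scaling between libraries and carry no test.

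**Figure D3:**
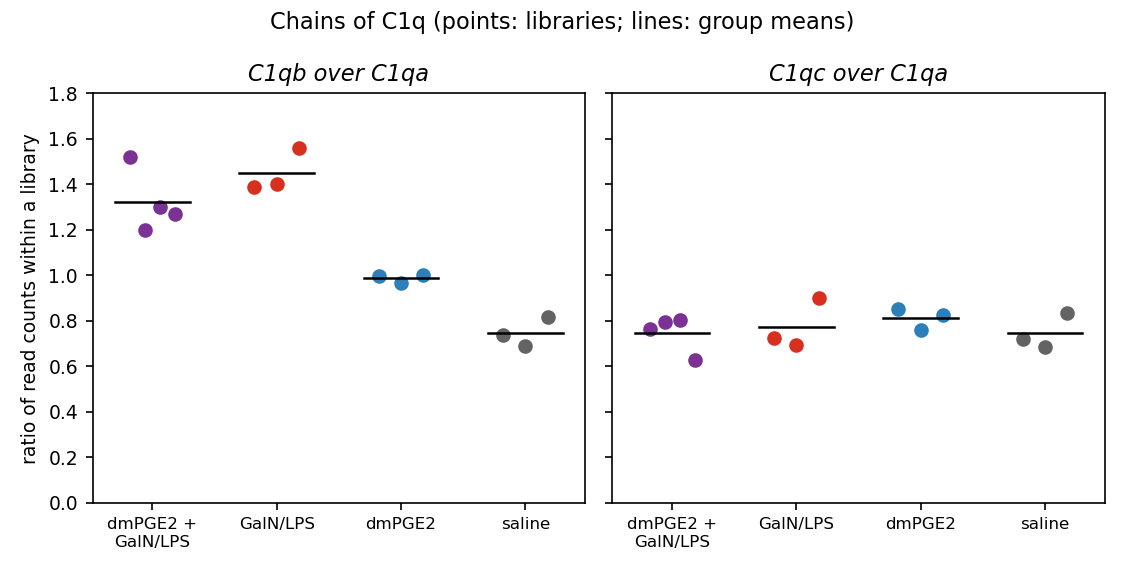
Read counts of C1qb (left) and C1qc (right) over those of C1qa within each library (points), with group means (lines), for dmPGE2 + GalN/LPS, GalN/LPS, dmPGE2 and saline from left to right. C1qb over C1qa lies at 1.2 or above in every injured liver and at 1.0 or below in every uninjured liver, while C1qc over C1qa overlaps between all groups.

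Fcna, a ficolin that starts the lectin pathway and is made by Kupffer cells, changed most among the macrophage components. It had 38.6, 45.4, 40.7 and 27.0 CPM in pretreated livers, 99.1, 78.0 and 109 CPM in GalN/LPS livers, 24.2, 25.5 and 18.7 CPM in dmPGE2 livers, and 15.9, 12.2 and 14.5 CPM in saline livers. With TMM the order was GalN/LPS, pretreated, dmPGE2 and saline with no overlap. With library totals the pretreated and dmPGE2 livers averaged 28.16 and 28.04 CPM (log2 fold change 0.0065, adjusted p = 0.983). The log2 fold change was 2.75 ± 0.20 in GalN/LPS against saline livers (adjusted p = 1.48e-08) and -1.33 ± 0.17 in pretreated against GalN/LPS livers (adjusted p = 3.57e-05). The promoters of Fcna and C1qc are shown because both mRNAs moved with the macrophage group and both hold the motif of PU.1, a transcription factor of myeloid cells. Fcna lies at chr2:25627925-25628224 and C1qc at chr4:136892865-136893164 (both minus strand, GRCm38.p6, RefSeq, 5′ to 3′). Both RefSeq starts lie inside the annotated genes, which reach 25628030 for Fcna and 136893065 for C1qc. Distances below are from the RefSeq starts.
Fcna: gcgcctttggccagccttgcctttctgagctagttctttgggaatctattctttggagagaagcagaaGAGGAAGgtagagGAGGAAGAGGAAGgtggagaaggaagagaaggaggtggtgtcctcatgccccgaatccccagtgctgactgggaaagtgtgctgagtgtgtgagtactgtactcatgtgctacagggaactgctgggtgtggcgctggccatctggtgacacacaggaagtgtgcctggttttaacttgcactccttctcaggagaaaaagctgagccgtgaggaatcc
C1qc: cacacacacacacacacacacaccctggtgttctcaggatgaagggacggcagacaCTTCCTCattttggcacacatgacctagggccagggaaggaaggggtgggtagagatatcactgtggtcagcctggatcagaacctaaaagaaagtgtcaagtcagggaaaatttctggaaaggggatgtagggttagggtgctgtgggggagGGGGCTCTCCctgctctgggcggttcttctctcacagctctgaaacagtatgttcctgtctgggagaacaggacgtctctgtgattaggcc
Capitals mark the PU.1 motif GAGGAAG on either strand, 182, 169 and 163 bases before the start of Fcna (the last pair overlapping by a base) and 194 bases before that of C1qc, and the NF-kB motif 41 bases before the start of C1qc. The PU.1 motif lay in 13.6% of all promoters, in 2 of the 4 macrophage components with a promoter in the table, in 1 of 3 receptors (C5ar2) and in 0 of 14 hepatocyte components. The NF-kB motif lay in 4.51% of all promoters and in 1 member.

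Markers of Kupffer cells and macrophages moved beside these mRNAs. All 8 were higher in GalN/LPS than in saline livers and all 8 lower in pretreated relative to GalN/LPS livers. Their summed level was 333 to 497 CPM in pretreated, 665 to 1080 CPM in GalN/LPS, 192 to 265 CPM in dmPGE2 and 158 to 215 CPM in saline livers. The 5 macrophage components summed to 0.586 ± 0.0358 of that level in pretreated, 0.55 ± 0.0371 in GalN/LPS, 0.68 ± 0.0496 in dmPGE2 and 0.661 ± 0.0566 in saline livers. The part of macrophage number in the changes was not tested.

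All 3 receptors rose with injury. C5ar1, the main receptor for C5a on neutrophils and macrophages (ENSMUSG00000049130, chromosome 7, 16246743 to 16259540, minus strand), had 10.1, 11.5, 10.5 and 10.1 CPM in pretreated livers, 41.3, 28.2 and 42.5 CPM in GalN/LPS livers, 0.787, 0.928 and 0.59 CPM in dmPGE2 livers, and 0.642, 0.647 and 0.72 CPM in saline livers. Injured and uninjured livers were far apart, pretreated livers lay between, and dmPGE2 and saline livers overlapped. Its log2 fold change was 5.79 ± 0.22 in GalN/LPS against saline livers (55.3-fold, adjusted p = 4.72e-11), the largest of the 32 members, and -1.82 ± 0.16 in pretreated against GalN/LPS livers (0.283-fold, adjusted p = 1.54e-06). C3ar1, the receptor for C3a, had 6.43, 4.03, 8.75 and 5.92 CPM in pretreated livers, 10.98, 9.76 and 16.1 CPM in GalN/LPS livers, 2.02, 1.39 and 1.56 CPM in dmPGE2 livers, and 1.38, 1.39 and 1.58 CPM in saline livers. Its log2 fold changes were 3.08 ± 0.29 (adjusted p = 2.57e-07) in GalN/LPS against saline livers and -0.97 ± 0.24 (adjusted p = 0.00326) in pretreated against GalN/LPS livers.

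C5ar2, a second C5a receptor that does not couple to G proteins, was the lowest complement mRNA per length in saline livers (0.1276 ± 0.044 FPKM). It had 0.872, 1.30, 1.58 and 1.61 CPM in pretreated livers, 3.82, 2.52 and 2.61 CPM in GalN/LPS livers, 0.936, 0.464 and 0.464 CPM in dmPGE2 livers, and 0.321, 0.398 and 0.624 CPM in saline livers. GalN/LPS livers held the 3 highest values. The log2 fold changes were 2.72 ± 0.40 (adjusted p = 3.02e-05) in GalN/LPS against saline livers and -1.16 ± 0.34 (adjusted p = 0.0098) in pretreated against GalN/LPS livers, and the second call was lost without GalN/LPS replicate 1 (-0.94, adjusted p = 0.0627). Counts of C5ar1 over C5ar2 averaged 8.35 in pretreated, 12.8 in GalN/LPS, 1.37 in dmPGE2 and 1.59 in saline livers. The promoter of C5ar1, shown because its mRNA changed most, covers chr7:16259289-16259588 (minus strand, GRCm38.p6, RefSeq, 5′ to 3′) and holds none of the 4 motifs. Its RefSeq start lies inside the annotated gene, which reaches 16259540, so most of this stretch is within the gene. Bases further upstream of the annotated gene were not searched.
C5ar1: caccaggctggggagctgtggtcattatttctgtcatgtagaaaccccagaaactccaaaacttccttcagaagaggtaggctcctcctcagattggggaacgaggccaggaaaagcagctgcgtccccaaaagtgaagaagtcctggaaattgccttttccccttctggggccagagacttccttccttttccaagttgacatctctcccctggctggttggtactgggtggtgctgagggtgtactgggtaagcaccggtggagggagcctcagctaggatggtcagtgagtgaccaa
Neutrophil markers such as S100a8 and Ly6g moved beside the receptors. All 7 were higher in GalN/LPS than in saline livers and all 7 lower in pretreated relative to GalN/LPS livers. They summed to 252 to 407 CPM in pretreated, 655 to 868 CPM in GalN/LPS, 5.06 to 8.58 CPM in dmPGE2 and 4.33 to 16 CPM in saline livers. Of the 6 monocyte markers, 5 were higher in GalN/LPS than in saline livers, and after pretreatment 1 was higher and 3 lower than in GalN/LPS livers. Without Fn1, which hepatocytes also make, they summed to 25 to 81 CPM in pretreated, 73.4 to 142 CPM in GalN/LPS, 2.4 to 2.96 CPM in dmPGE2 and 2.29 to 4.13 CPM in saline livers. Their part in the rise of the receptors was not tested.

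Among the membrane-bound inhibitors and carriers, Cd55 moved with the receptors. Cd55, decay-accelerating factor, which dissociates C3 convertases on host cells, had 16.6, 31.1, 31.8 and 27.3 CPM in pretreated livers, 91.3, 76.5 and 80.7 CPM in GalN/LPS livers, 4.83, 5.10 and 3.96 CPM in dmPGE2 livers, and 2.89, 3.04 and 3.60 CPM in saline livers. The 4 groups did not overlap. It was higher in GalN/LPS than in saline livers (4.70 ± 0.23, 26.1-fold, adjusted p = 3.07e-10) and fell in pretreated relative to GalN/LPS livers (-1.63 ± 0.18, adjusted p = 1.05e-05). Endothelial markers such as Pecam1 moved beside it: 6 of 6 were higher in GalN/LPS than in saline livers and 6 of 6 lower after pretreatment. They summed to 87.9 to 198 CPM in pretreated, 347 to 439 CPM in GalN/LPS, 56.8 to 75.6 CPM in dmPGE2 and 50 to 54 CPM in saline livers. Of 5 cholangiocyte markers, 5 were higher in GalN/LPS than in saline livers and 3 lower after pretreatment, with sums of 64.2 to 102 CPM in pretreated, 91.8 to 178 CPM in GalN/LPS, 52.1 to 61.5 CPM in dmPGE2 and 44.6 to 68.5 CPM in saline livers. Their part in the change of Cd55 was not tested. Cd59a, which blocks the last step of pore formation, had 81.9, 72.6, 87.7 and 84.9 CPM in pretreated livers, 44.4, 72.4 and 49.6 CPM in GalN/LPS livers, 37.7, 45.2 and 36.1 CPM in dmPGE2 livers, and 41.6, 38.7 and 35.4 CPM in saline livers. It was higher in GalN/LPS than in saline livers (0.52 ± 0.16, adjusted p = 0.0135), a call lost without GalN/LPS replicate 2 (0.28, adjusted p = 0.104) or saline replicate 3 (0.46, adjusted p = 0.0574), and higher again in pretreated than in GalN/LPS livers (0.56 ± 0.15, adjusted p = 0.0068). With library totals the last call was lost (0.07, adjusted p = 0.64).

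Clu, clusterin, a plasma chaperone that binds the terminal complex, had 3839, 2955, 2733 and 3216 CPM in pretreated livers, 1663, 2213 and 1817 CPM in GalN/LPS livers, 1378, 1502 and 1356 CPM in dmPGE2 livers, and 1470, 1179 and 1550 CPM in saline livers. It was higher in pretreated than in GalN/LPS livers (0.75 ± 0.17, adjusted p = 0.00186), a call lost with library totals (0.25, adjusted p = 0.133). Its rise in GalN/LPS against saline livers (0.44 ± 0.18, adjusted p = 0.0476) held in 2 of 13 fits that left out 1 library, those without GalN/LPS replicate 1 and pretreated replicate 1, and in the others the value lay between 0.31 without GalN/LPS replicate 2 and 0.51 without saline replicate 3.

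**Figure D4:**
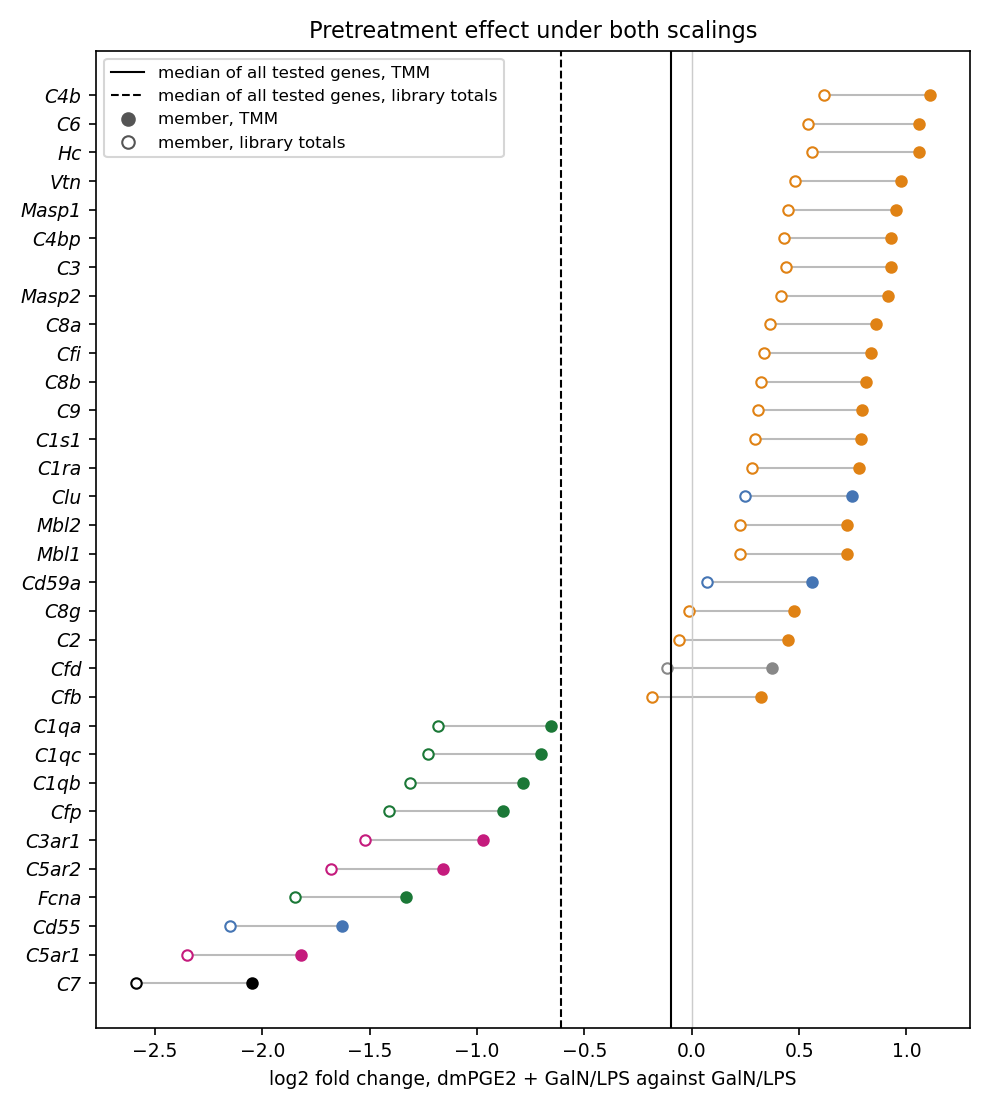
Log2 fold change of the 32 members in dmPGE2 + GalN/LPS against GalN/LPS livers with TMM (filled) and with library totals (open), coloured by role (orange hepatocyte, green macrophage, pink receptor, blue several cell types, grey Cfd, black C7); vertical lines give the median of all genes tested, -0.10 with TMM and -0.61 with library totals. The hepatocyte mRNAs lie to the right of either median, and C2, C8g, Cfb and Cfd change sign between the scalings.

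Without injury, dmPGE2 changed no member past the test. In dmPGE2 against saline livers, edgeR called 0 of 32 members and 0% of all genes. Without adjustment, 5 members (C2, C1qb, Fcna, Cd55 and C7) and 1990 genes had p under 0.05. DESeq2 called 0 members and 282 genes, and 7 members had an unadjusted p under 0.05 with it. The largest log2 fold changes were 1.498 ± 0.56 for C7 (adjusted p = 0.248), 0.85 ± 0.42 for Cfb (adjusted p = 0.383) and 0.68 ± 0.19 for Fcna (adjusted p = 0.14). Libraries did not overlap for 8 members, against 26.3% of all genes. With no filter on low counts, C7, Cfb and Fcna passed as higher.

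Injury in livers that had received dmPGE2 gave another picture than injury alone. Pretreated against dmPGE2 livers, a comparison that shares no library with GalN/LPS against saline livers, gave 29 higher and 0 lower members, where 66.7% of all genes passed (35.3% higher and 31.4% lower). Libraries did not overlap for 26 members and for 64.9% of all genes. All 19 hepatocyte components were higher, with a median log2 fold change of 1.08 beside 0.13 over all genes. All 8 hepatocyte markers were higher too, with a median of 1.21. Among the 19 components C3 led with 1.35 ± 0.23 (adjusted p = 0.000102) and Hc followed with 1.202 ± 0.17 (adjusted p = 1.66e-05). Of the macrophage components 4 of 5 passed, with C1qb at 0.92 ± 0.19 (adjusted p = 0.000416) and C1qc short of the threshold (0.39 ± 0.21, adjusted p = 0.118). C1qc passed without pretreated replicate 4 (0.56, adjusted p = 0.013). The 3 receptors were higher, with C5ar1 at 3.79 ± 0.21 (13.8-fold, adjusted p = 1.52e-09). C7 did not pass (0.67 ± 0.47, adjusted p = 0.216). With library totals the count fell to 14 higher members, 9 of them hepatocyte components and 0 of them macrophage components. C1qc (-0.36), C1qa (-0.25), Masp1 (-0.21), Mbl1 (-0.16) and C7 (-0.07) then changed sign. The shares of all genes above hold for TMM only. With library totals the median of all genes was -0.62, and far more genes were lower than higher (counts in the last section). Calls were lost on leaving out 1 library for Mbl1 (0.47 without GalN/LPS replicate 3, 0.48 without pretreated replicate 1, 0.53 and 0.43 without dmPGE2 replicate 1 and 3), C1qa (0.41 without dmPGE2 replicate 3), Cfb (0.87 without dmPGE2 replicate 3, 0.90 without pretreated replicate 1) and C5ar2 (0.97 without pretreated replicate 4, 0.91 and 0.88 without dmPGE2 replicate 2 and 3).

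The difference between these injury effects was tested as an interaction: the log2 fold change of pretreated against dmPGE2 livers minus that of GalN/LPS against saline livers. It was positive for 16 members and negative for 10, where 35% of all genes passed (15.4% positive and 19.6% negative). The 16 were 15 of 19 hepatocyte components and Clu, and the 10 were all macrophage components and receptors with Cd55 and C7. Among hepatocyte components C6 had the largest value (1.14 ± 0.20, adjusted p = 0.00142) and Vtn the next (1.08 ± 0.26, adjusted p = 0.00708), while C3, Cfb, Mbl1 and Mbl2 did not pass. Of the negative ones, C7 was at -3.55 ± 0.70 (adjusted p = 0.00249), Cd55 at -2.17 ± 0.29 (adjusted p = 0.000262), Fcna at -2.02 ± 0.26 (adjusted p = 0.000238) and C5ar1 at -1.998 ± 0.32 (adjusted p = 0.000679). With library totals the 10 negative calls all passed and Vtn was the only positive one (0.52, adjusted p = 0.028), since the median of all genes moved by -0.58. Far more of all genes were then negative than positive (counts in the last section), so the shares above hold for TMM only. The hepatocyte median of the interaction was 0.815 with TMM and 0.255 with library totals. Relative to the median of all genes it stood at 0.93 and 0.95, which a change of scaling leaves nearly fixed. Cell markers moved beside the members: 5 of 8 hepatocyte markers were positive (median 1.10, against 0.81 for the hepatocyte components), and 6 of 8 Kupffer cell and macrophage markers, 5 of 6 endothelial and 4 of 6 stellate cell markers were negative, while 0 of 7 neutrophil and 0 of 6 monocyte markers passed. Their part in the interaction was not tested. Leaving out 1 library lost the interaction call of 6 members in 1 or more fits. The calls of C8b, C9 and Clu held in 4, 5 and 6 of the 13 such fits, and those of C1qc, C3ar1 and C5ar2 in 10, 9 and 9. Without dmPGE2 replicate 1 these were C8b (0.65), C9 (0.80), Clu (0.73), C1qc (-0.80), C3ar1 (-0.99) and C5ar2 (-1.2). Without GalN/LPS replicate 3 they were C8b (0.58), C9 (0.77), Clu (0.69), C1qc (-0.71) and C3ar1 (-0.95). Without GalN/LPS replicate 2, C3 (0.88), Mbl1 (0.87), Mbl2 (1.2) and Cd59a (0.77) passed as well. So did C3 without saline replicate 2 (0.84), Mbl1 without dmPGE2 replicate 2 (0.91) and Mbl2 without pretreated replicate 2 (1.01). Any difference in the time since dmPGE2 is part of this value.

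**Figure D5:**
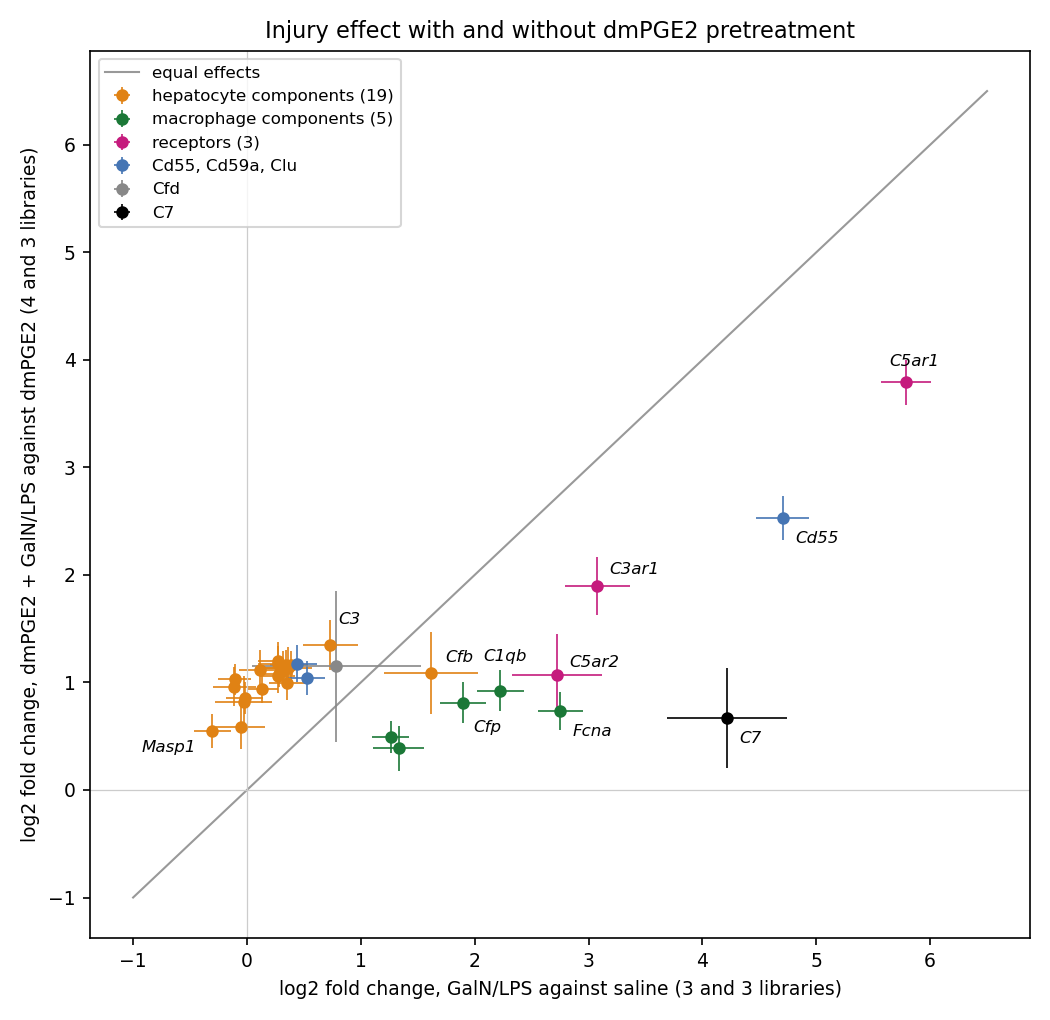
Log2 fold change ± SE of each member in GalN/LPS against saline livers (horizontal) and in dmPGE2 + GalN/LPS against dmPGE2 livers (vertical), TMM-scaled and coloured by role; on the grey line both effects are equal. Of the 19 hepatocyte components 18 lie above the line, and all 5 macrophage components, all 3 receptors, Cd55 and C7 lie below it.

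Beyond the 32 members, 28 other complement genes were listed, of which 27 were in the table and 23 were tested. In GalN/LPS against saline livers 10 were higher and 3 lower, where 52.9% of all genes passed. Itgam and Itgb2, the chains of complement receptor 3 on neutrophils and macrophages, led the higher ones at 4.76 ± 0.34 and 4.54 ± 0.27, followed by Cd93 at 4.37 ± 0.45, a membrane protein once described as a C1q receptor. C1rl, a protease related to C1r, was lower (-1.02 ± 0.11, adjusted p = 1.67e-06). In pretreated against GalN/LPS livers 12 were higher and 7 lower, where 54.5% of all genes passed, with Susd4, a membrane inhibitor of complement, at 1.32 ± 0.19, C1rl at 0.88 ± 0.11, C1qbp, a mitochondrial protein that can bind C1q, at 0.82 ± 0.13 and Itgb2 at -1.33 ± 0.21. In dmPGE2 against saline livers 0 passed, and 1 had an unadjusted p under 0.05. In pretreated against dmPGE2 livers 16 were higher and 1 lower, where 66.7% of all genes passed. In the interaction 9 were positive and 6 negative, where 35% of all genes passed, with Susd4 first among the positive ones (1.46 ± 0.27, adjusted p = 0.00176).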

How the data were processed

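The authors deposited raw read counts per gene, per the file headers and checked here to be whole numbers, and FPKM of the same 13 libraries. The submitters' processing notes name HISAT2 and GRCm38/mm10. Not given in the sources used here: the tool that counted reads, its annotation and its strand setting. Per the labels, 1 µg of RNA went into each library (NEBNext Ultra RNA). The name of each column gave its group and replicate, and the columns named ALF were taken as GalN/LPS. The FPKM deposited by the authors were used for levels compared between genes and for alternatives with limma on log2(FPKM + 0.1) or log2(FPKM + 1). Their denominator follows the TMM factors, so they are no separate check of the scaling.

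A single fit of the 13 libraries was made with edgeR 4.0.16 under R 4.3.3 (filterByExpr by group, TMM, two-sided quasi-likelihood F test), and p-values were adjusted by Benjamini-Hochberg over 14280 genes, which held 99.9% of counts. The common dispersion was 0.039 with 9 residual degrees of freedom. The code was tested on simulated data. Total counts of 14829838 to 20777809 per library set the precision of low mRNAs such as C5ar2 (303 reads in all libraries together). No pair of libraries within a group was a duplicate, and pairs between groups were not checked. The members, the role groups, the marker lists and the further complement genes were chosen with earlier results of these data known. All 32 members were named. Of the other complement genes up to 4 per comparison were named by smallest adjusted p. Alternatives were library totals, RLE size factors, DESeq2 1.42.0, no filter on low counts, limma 3.58.1, a fit of only the 2 groups compared, a replicate block and leaving out each library. Promoters, 1 or more for 25 members, came from a RefSeq table of GRCm38.p6. Figures used matplotlib.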

Additional observations from a re-analysis of the deposited data

Results flagged for a closer look

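The effect of GalN/LPS differed between livers with and without dmPGE2 for 26 members by the interaction test of edgeR at an adjusted p of 0.05, where 35% of all genes passed. On the log2 scale the interaction was positive for the classical pathway mRNAs C1ra (0.82), C1s1 (0.77), C2 (0.80) and C4b (1.00), for the lectin proteases Masp1 (0.85) and Masp2 (0.81), and for Cfi (0.90). It was positive for the terminal components Hc (0.93), C6 (1.14), C8a (0.81), C8b (0.64), C8g (0.79) and C9 (0.78), for the regulators C4bp (0.88) and Vtn (1.08), and for Clu (0.73). It was negative for the C1q chains C1qa (-0.77), C1qb (-1.30) and C1qc (-0.94), for Cfp (-1.09) and Fcna (-2.02), for the receptors C3ar1 (-1.18), C5ar1 (-1.998) and C5ar2 (-1.65), and for Cd55 (-2.17) and C7 (-3.55). These values are with TMM. With library totals Vtn was the only positive call left (0.52, adjusted p = 0.028), while the negative calls all passed. Far more of all genes were then negative than positive, as counted in the last section. Leaving out 1 library lost calls of both signs, as given above.

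In the group of 4 pretreated livers, 1 library stood apart from the others for 2 members. Cfi was lowest in pretreated replicate 2, with a gap to the next library of 0.853 of the group's range. Hc was highest in pretreated replicate 1, with a gap of 0.91 of the range. Chance flags about 1 in 20 groups, and 32 members were examined.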

How the results depend on the processing

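In GalN/LPS against saline livers 1 member passed as lower with library totals and 1 with no filter (0 to 1 on leaving out 1 library). In pretreated against GalN/LPS livers, library totals gave 13 higher members, with 618 genes higher and 6799 lower, and turned the called C2 (-0.0613) and C8g (-0.0129) and the uncalled Cfb (-0.18) and Cfd (-0.11). In pretreated against dmPGE2 livers they gave 14 higher members, 9 higher and 5 lower other complement genes, 1523 genes higher and 7143 lower, and turned the called Masp1 (-0.21), Mbl1 (-0.16) and C1qa (-0.25) and the uncalled C1qc (-0.36) and C7 (-0.07). In the interaction they gave 1 higher member, 3 higher other complement genes, 183 genes higher and 5205 lower. The median of all genes moved with that choice, as given above.

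The lower other complement genes in pretreated against dmPGE2 livers numbered 4 with RLE size factors, DESeq2, limma at either pseudocount and only the 2 groups, 5 with no filter, 2 with unfiltered limma and 0 to 4 on leaving out 1 library. In the interaction they numbered 3 with unfiltered limma and 3 to 6 on leaving out 1 library, and genes higher 1370 to 2705. In dmPGE2 against saline livers, DESeq2 called 138 genes higher and 144 lower, no filter 290 and 171 with 3 members higher, limma with a pseudocount of 1 gave 12 and 4, unfiltered limma 6 and 2, and leaving out 1 library 0 to 14 each way. The cause of these shifts was not tested.

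Of 18 same-numbered pairs of libraries, 0 had a correlation of their deviations over 0.1, with values from -0.315 to 0.0873. The labels state no pairing, and with so few libraries per group these correlations cannot exclude one. With a replicate block, 12 members were higher in GalN/LPS against saline livers and 19 higher and 10 lower in pretreated against GalN/LPS livers. The interaction then had 13 positive and 9 negative members. Replicate 4 exists only in the pretreated group, so a block for it takes up that library. The log2 fold change of C1qc in pretreated against dmPGE2 livers was 0.55 with the block and 0.56 without pretreated replicate 4. The share of all genes that passed with the block is not given here, so these member counts have no background to compare with. Depth limits C5ar2, C7 and Cfd.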
